A study of Homo sapiens with 6 samples.

Results

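The 10 genes examined here are GAS5, SNHG1, SNHG5, SNHG6, SNHG7, SNHG8, SNHG12, SNHG15, SNHG16 and ZFAS1, non-coding genes whose introns hold small nucleolar RNAs (snoRNAs) and whose transcripts are classed as beginning with a 5′ terminal oligopyrimidine tract (TOP). They were taken by gene symbol, and all 10 were found among the 56305 genes listed. RNA was sequenced from MOLM13, a human acute myeloid leukemia cell line with a FLT3 internal tandem duplication, which all libraries share. The cells had been treated for 24 h with DMSO, the solvent (3 libraries), or with 1 μM ZW27941 (3 libraries), a compound that joins a METTL3 ligand to a ligand of the VHL ubiquitin ligase and so directs METTL3, the enzyme that writes N6-methyladenosine (m6A) on mRNA, to the proteasome. The comparison asked how the RNA of these host genes differed after exposure to the degrader. All libraries are of 1 cell line, and the labels do not say whether replicates came from separate cultures, so p-values measure the spread between these libraries, which may be technical.

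snoRNAs guide the chemical modification of ribosomal RNA and are cut out of the introns of their hosts after splicing. In the hosts described here the joined exons code for no conserved protein, yet the spliced RNA is exported and engaged by ribosomes at short reading frames. A stop codon far upstream of the end then exposes it to nonsense-mediated decay, so the spliced RNA is short-lived in cells that translate it. A TOP tract is a C at the first transcribed base followed by a run of pyrimidines, and it places the translation of an RNA under the control of the mTORC1 kinase and the protein LARP1. Most mRNAs of ribosomal proteins carry the same tract.

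The start of each gene was read from RefSeq (GRCh38.p14), since the tract is what gives the group its name. A start was found for 8 of the 10 genes, all but SNHG6 and SNHG15. The sequences run from 10 bases before the annotated start through the first 20 transcribed bases. Capitals mark a C with at least 4 pyrimidines after it that begins within 5 bases of the annotated start.
SNHG5, chr6:85678714-85678743, minus strand: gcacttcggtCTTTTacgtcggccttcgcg
SNHG7, chr9:136728165-136728194, minus strand: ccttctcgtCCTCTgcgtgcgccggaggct
SNHG8, chr4:118278752-118278781, plus strand: ctcggCCTTTCacattcgggaagcgtcggg
SNHG12, chr1:28581854-28581883, minus strand: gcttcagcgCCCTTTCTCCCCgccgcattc
SNHG16, chr17:76557754-76557783, plus strand: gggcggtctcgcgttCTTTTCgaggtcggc
ZFAS1, chr20:49278632-49278661, plus strand: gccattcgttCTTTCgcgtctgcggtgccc
SNHG1, chr11:62855866-62855895, minus strand: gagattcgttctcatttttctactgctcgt

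Such a run was found at 6 of the 8 host starts, among them SNHG5 and ZFAS1, where the run opens exactly at the annotated first base. In SNHG12 the run was 12 bases long, at a RefSeq start that lies 1259 bases downstream of the outermost SNHG12 start in GENCODE v29. The RefSeq start of ZFAS1 lies 464 bases downstream of its outermost GENCODE start. The same search found a run at 73.8% of 80 starts of cytosolic ribosomal protein genes and at 21.1% of all 35116 starts in the table. SNHG1 had none, and GAS5 had none at its RefSeq start, which lies 163 bases upstream of the first GAS5 start in GENCODE v29. GENCODE starts of both genes were looked up after their RefSeq starts had been seen to lack a run. The most frequent single start of GAS5 (6 of 29 transcripts), at chr1:173867970-173867989 on the minus strand, opens with 6 pyrimidines, while the next ones open with 0 (5 transcripts) and with 4 that do not begin with C (4 transcripts). The most frequent start of SNHG1 (9 of 25 transcripts), at chr11:62855469-62855488 on the minus strand, opens with 3, and the next ones with 1 and 0. The first 20 bases of the most frequent start of each gene are shown with the leading pyrimidines in capitals.
GAS5: CTTTTCgaggtaggagtcga
SNHG1: CTTattgggctcctgtctgc

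The libraries held between 143454176 and 178744976 counts on genes, and 20399 genes passed the expression filter, the 10 hosts among them. The METTL3 transcript was at 122 CPM (read counts scaled to library size with edgeR's TMM factors) with DMSO and 123 CPM with ZW27941. Its level does not check the labels, since the compound acts on the protein. Markers of the myeloid line were present, with FLT3 at 563 CPM, PTPRC at 388 CPM and MPO at 175 CPM in DMSO. Of the 6 line markers 4 (66.7%) were called higher with ZW27941, against 16.3% of all genes tested. They were PTPRC, MPO, SPI1 and CSF3R, with log2 fold changes of 0.074 to 0.11. The part of this in the results on the hosts was not tested. Among markers of other cell types, CD3E, MS4A1, EPCAM, HBB and ALB were too low to be tested and COL1A1 was at 1.02 CPM in DMSO. ZW27941 replicate 3 stood apart. Its counts differed from those of the other ZW27941 libraries by 11.7 and 7.93 times the variance that counting alone gives (chi-square per degree of freedom), against 4.37 to 5.19 between DMSO libraries. In this library 5.25% of the reads tallied had aligned to several places, against 3.63% to 4.07% in the others. Each host is therefore also given without it where this changed the call, and the part of these features in the results was not tested.

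All 10 hosts had a lower mean with ZW27941 than with DMSO. Of these, 6 fell (adjusted p under 0.05, edgeR quasi-likelihood test, Benjamini-Hochberg over all genes tested), namely SNHG15, SNHG7, SNHG8, SNHG12, SNHG5 and SNHG1, and 0 rose. Among all genes tested, 13.8% were called lower and 16.3% were called higher. The falls were small (SNHG1 fell by 8.82% and SNHG15 fell by 16.0%), and the median log2 fold change of the 10 hosts was −0.14, where the median of all genes tested was −0.0019. Without ZW27941 replicate 3 (13.8% of all genes lower and 15.6% higher) the count was 8 lower, GAS5 and SNHG6 joining the 6. With upper quartile factors, which moved the split of all genes to 17.9% lower and 13% higher, it was 9 lower, and SNHG16 alone did not pass. At an unadjusted p under 0.05 the count was 8 lower and 0 higher, but the share of all genes at that threshold was not worked out. In 7 hosts every ZW27941 library lay below every DMSO library, a separation that 19.9% of all genes tested showed in this direction and 21.7% in the other.

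**Figure D1:**
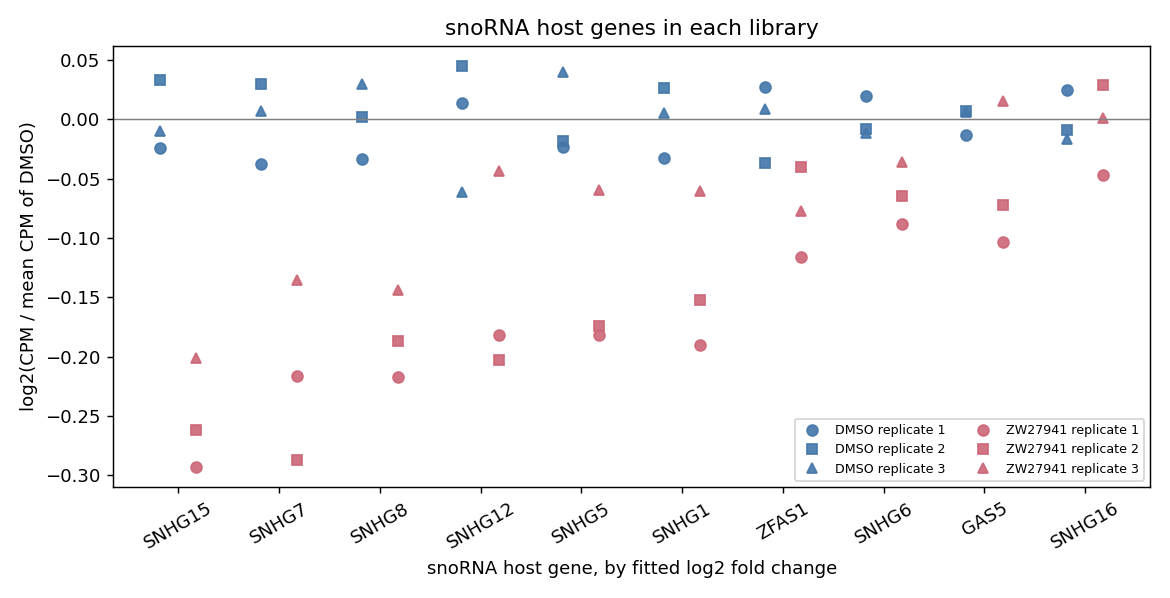
Level of each host in each library as log2 of its CPM over the mean CPM of the 3 DMSO libraries, with genes ordered by fitted log2 fold change and 1 point per library. The red points of ZW27941 lie below all blue DMSO points in 7 genes, and the red triangle (ZW27941 replicate 3) is the highest of the 3 ZW27941 points in 8 of the 10.

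SNHG15, which hosts the pseudouridylation guide SNORA9, fell furthest. It was at 73.99, 77.0 and 74.75 CPM in the DMSO libraries and at 61.41, 62.76 and 65.47 CPM in the ZW27941 libraries. The groups did not overlap, and the highest ZW27941 value was well under the lowest DMSO value. SNHG15 thus had a log2 fold change of −0.25 (SE, the standard error, 0.028, edgeR quasi-likelihood adjusted p = 8.50e-07), and its mean fell by 16.0%.

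SNHG7, which hosts copies of SNORA17, was at 79.75, 83.57 and 82.26 CPM with DMSO and at 70.46, 67.1 and 74.54 CPM with ZW27941. The ZW27941 libraries were all lower, although they spread more widely (SD 3.73 CPM) than the DMSO libraries (SD 1.95 CPM, n = 3 each). Its log2 fold change was −0.21 (SE 0.032, edgeR quasi-likelihood adjusted p = 3.13e-05). In GENCODE v29, 25.2% of the exon bases of SNHG7 lie opposite exons of FAM69B, and the sources used here do not state whether counting used strand, so reads from this stretch may not have been assigned cleanly.

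SNHG8, which hosts SNORA24, was at 116.4, 119.4 and 121.7 CPM with DMSO and at 102.5, 104.7 and 107.8 CPM with ZW27941. The spread was alike in both groups (SD 2.63 and 2.66 CPM, n = 3 each), and the groups stood apart by more than that spread. In the fit its log2 fold change came to −0.18 (SE 0.027, edgeR quasi-likelihood adjusted p = 1.95e-05). SNORA24, on the same strand, shares 14.2% of the exon bases of SNHG8 in GENCODE v29, so reads from there may not have been assigned cleanly. SNHG15, SNHG7 and SNHG8 fell under every alternative setting tried, each of the 6 fits with 1 library left out included.

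SNHG1 hosts a cluster of box C/D snoRNAs, which guide 2′-O-methylation. It was at 117.2, 122.0 and 120.3 CPM with DMSO and at 105.0, 107.9 and 114.9 CPM with ZW27941. Its groups did not overlap, and ZW27941 replicate 3 was the nearest to DMSO. SNHG1 had a log2 fold change of −0.13 (SE 0.030, edgeR quasi-likelihood adjusted p = 0.00162). In GENCODE v29, 15.3% of its exon bases are shared with snoRNA genes on the same strand, so reads from there may not have been assigned cleanly.

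SNHG5, the host of the SNORD50 pair, was at 110.7, 111.1 and 115.7 CPM with DMSO and at 99.18, 99.74 and 108.0 CPM with ZW27941. Again the ZW27941 libraries were all lower and replicate 3 was the nearest to DMSO. The log2 fold change was −0.14 (SE 0.031, edgeR quasi-likelihood adjusted p = 0.00157). SNHG1 and SNHG5 also passed under every alternative.

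SNHG12, the host of 3 box H/ACA snoRNAs and of SNORD99, is the least abundant of the 10 per exon length. It was at 19.09, 19.51 and 18.12 CPM with DMSO and at 16.66, 16.43 and 18.34 CPM with ZW27941. The groups overlapped, since ZW27941 replicate 3 was above DMSO replicate 3. SNHG12 had a log2 fold change of −0.14 (SE 0.042, edgeR quasi-likelihood adjusted p = 0.0137). The call was lost without DMSO replicate 1, DMSO replicate 2, ZW27941 replicate 1 or ZW27941 replicate 2 (adjusted p = 0.0567, 0.0918, 0.0698 and 0.0874, edgeR quasi-likelihood test).

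The other 4 hosts did not pass. GAS5, named for its accumulation in growth-arrested cells and the most abundant of the 10, was at 695.8, 705.8 and 705.2 CPM with DMSO and at 653.9, 668.0 and 709.7 CPM with ZW27941. ZW27941 replicate 3 was higher than every DMSO library, while the other ZW27941 libraries were lower than all of them. The log2 fold change was −0.053 (SE 0.028, edgeR quasi-likelihood adjusted p = 0.173). Without ZW27941 replicate 3 it was −0.090 and passed (adjusted p = 0.00302, edgeR quasi-likelihood test). With all libraries and upper quartile factors it was −0.076 and passed (adjusted p = 0.0483, edgeR quasi-likelihood test). The outcome for GAS5 thus depends on that library and on the normalization.

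SNHG6, the host of SNORD87, ran from 233.0 to 238.1 CPM with DMSO and from 221.0 to 229.1 CPM with ZW27941. ZFAS1, the host of the SNORD12 family, ran from 23.66 to 24.75 CPM and from 22.41 to 23.61 CPM. In both genes the ZW27941 libraries lay below all DMSO libraries by a narrow gap. The log2 fold changes were −0.063 (standard error 0.024) and −0.078 (standard error 0.033), with adjusted p = 0.0554 and 0.0795 (edgeR quasi-likelihood test). SNHG6 passed under 5 of 13 alternatives and ZFAS1 under 1. Without ZW27941 replicate 3 the log2 fold change of SNHG6 was −0.0785 and passed (adjusted p = 0.0112, edgeR quasi-likelihood test). Exons of MCMDC2, on the opposite strand, share 365 exon bases with SNHG6 (29.3%), and exons of ZNFX1, also on the opposite strand, share 249 with ZFAS1. Of the exon bases of ZFAS1, 46.9% are shared with other genes on either strand, and 26.1% with genes on the opposite strand. As for SNHG7, reads from these stretches may not have been assigned cleanly.

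SNHG16, the host of the SNORD1 family, was at 58.28, 56.91 and 56.63 CPM with DMSO and at 55.45, 58.44 and 57.33 CPM with ZW27941. The libraries of both conditions were intermixed. The log2 fold change was −0.0054 (SE 0.028, edgeR quasi-likelihood adjusted p = 0.909), and its sign changed under 4 of the 13 alternatives. Of its exon bases, 33.4% are shared with other genes, most of them with a gene on the opposite strand.

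**Figure D2:**
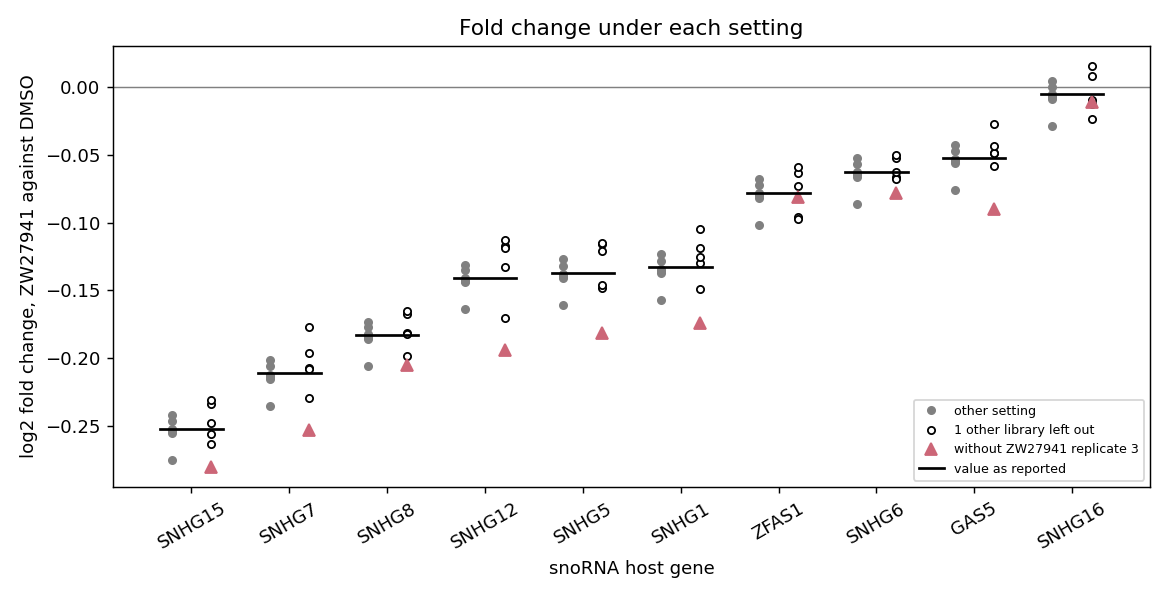
Log2 fold change of each host (ZW27941 against DMSO) as reported (black line), under the 7 other settings that keep all libraries (grey points) and with each library left out (open circles, with a red triangle where ZW27941 replicate 3 was left out). Leaving out ZW27941 replicate 3 gave the lowest value for SNHG15, SNHG7, SNHG12, SNHG5, SNHG1 and GAS5, and SNHG16 alone crosses 0.

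Taken as a sum, the 10 hosts were at 1534 to 1552 CPM in the DMSO libraries and at 1408, 1433 and 1508 CPM in the ZW27941 libraries. GAS5 made up 45.4% to 45.5% of their counts with DMSO and 46.4% to 47.1% with ZW27941. Without GAS5 the other 9 summed to 844 ± 4.92 CPM (SD, n = 3) with DMSO and 773 ± 23.1 CPM (SD, n = 3) with ZW27941. The sums with ZW27941 were lower in all 3 libraries, with replicate 3 the highest of them at 798.5 CPM.

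To compare levels between genes, CPM were divided by the length of each gene's exons in GENCODE v29, an annotation of the same assembly (hg38) but not necessarily the one the authors counted on. On this scale GAS5 was at 193 ± 1.55 CPM per kb (SD, n = 3) in DMSO and SNHG6 at 188 ± 2.24, followed by SNHG8 at 129 ± 2.85. SNHG5 (40.1), SNHG1 (31.9), SNHG15 (20.6) and SNHG7 (18.8 CPM per kb) formed a middle range. ZFAS1 at 10.8 ± 0.249 and SNHG16 at 10.7 ± 0.164 CPM per kb could not be told apart by their spread, and SNHG12 was lowest at 4.43 ± 0.167 CPM per kb (SD, n = 3). With ZW27941 the levels of GAS5 (187 ± 7.99) and SNHG6 (180 ± 3.25 CPM per kb, SD, n = 3) overlapped as well. The order of size was not the order of change, since the most abundant pair did not pass and SNHG8, the next in level, fell. Exon lengths include retained introns and ran from 923 to 5362 bases, so the order depends on which transcripts the cells make.

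**Figure D3:**
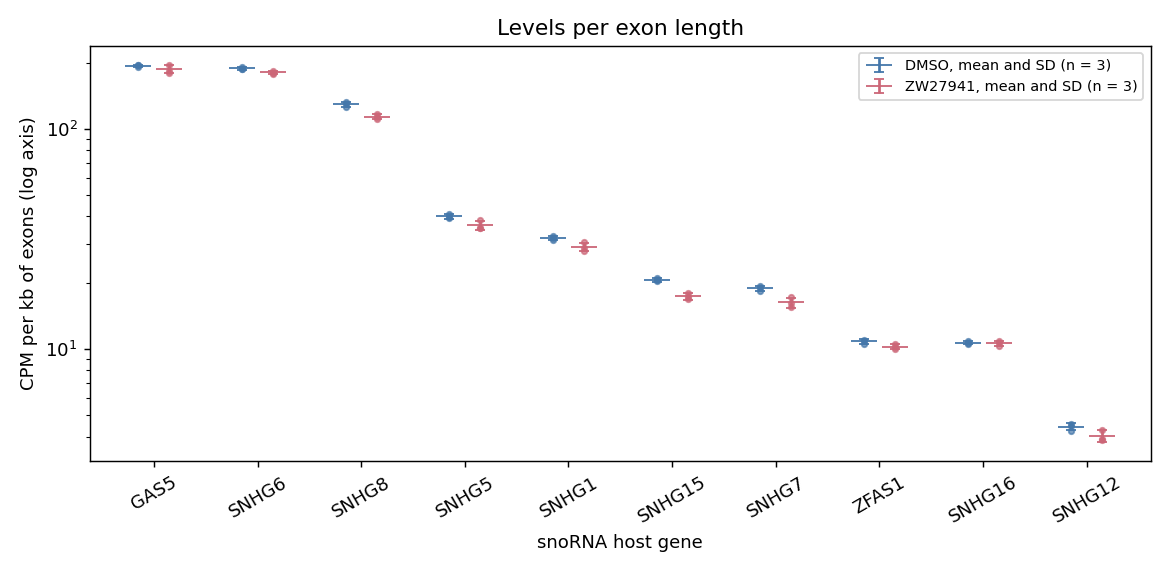
Level of each host in CPM per kb of exons on a log axis, with each library as a point and the mean and SD (n = 3) of DMSO (blue) and ZW27941 (red). GAS5 and SNHG6 are highest (193 and 188 CPM per kb in DMSO) and SNHG12 is lowest (4.43).

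The hosts lie on 9 chromosomes and are not neighbours, apart from sharing chromosome 1 in the case of GAS5 (173863900 to 173868882) and SNHG12 (28578538 to 28583132, both on the minus strand, GENCODE v29 on GRCh38). SNHG15 lies on chromosome 7 (44983023 to 44986961, minus strand), SNHG7 on chromosome 9 (136721366 to 136728184, minus strand) and SNHG8 on chromosome 4 (118278709 to 118279823, plus strand). SNHG1 lies on chromosome 11 (62851988 to 62855914, minus strand) and SNHG5 on chromosome 6 (85660950 to 85678748, minus strand). SNHG16 lies on chromosome 17 (76557766 to 76565348, plus strand) and ZFAS1 on chromosome 20 (49278178 to 49295738, plus strand). SNHG6 is on chromosome 8 (66921684 to 66926398, minus strand). Because METTL3 methylates adenosines in a short sequence context, the motif GGACT was also counted on the sense strand of the longest basic GENCODE transcript of each host. SNHG8 held 3 in 672 bases (4.46 per kb) and SNHG7 5 in 2357 bases (2.12 per kb). SNHG12 held 1.6 per kb, SNHG5 0.969, SNHG15, which fell furthest, 0.963, and SNHG1 0.672. Of the 4 hosts that did not pass, GAS5 held 1.99 and SNHG16 1.39 per kb, and SNHG6 and ZFAS1 held 0. The median over 15325 tested genes was 0.924 per kb, and 87.6% of them held at least 1. A match is a run of letters and does not show that the site was methylated in these cells.

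The snoRNAs inside the hosts were looked for as rows of their own. Of 35 snoRNA genes assigned to the 10 hosts, all lie within the span of their host by RefSeq coordinates, and 31 had a row listed. SNORD47, SNORD76, SNORD80 and SNORD50A had none under these names. The listed rows numbered 33, since SNORA17A and SNORA17B each had a second row under an older name. No count was found in any library for 20 rows, which allows up to 3 counts per library, or 0.0168 to 0.0209 CPM (counting error only). Another 8 rows held too few counts to be tested, at most 42 in all 6 libraries together. Of the 26 rows whose gene lies by at least 50% of its bases within exons of its host in GENCODE v29, 19 were at 0, against 1 of the 7 others. Reads that fall on 2 genes at once are set aside by HTSeq as ambiguous in its default mode, and 2.69% to 2.80% of the reads tallied were in that class, but the part of this in the empty rows was not tested.

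Only 5 snoRNA rows passed the filter, and 0 were called in either direction, also by DESeq2. At an unadjusted p under 0.05 (edgeR quasi-likelihood test) 1 was lower and 0 were higher, with the share of all genes not worked out. SNORD12C, in ZFAS1, had 32, 35 and 30 counts with DMSO and 17, 21 and 30 with ZW27941, a log2 fold change of −0.62 (SE 0.30, edgeR quasi-likelihood adjusted p = 0.126). Without ZW27941 replicate 1 the log2 fold change was −0.37, and no fit with 1 library left out passed. Its groups met at 30 counts, and on the CPM scale the highest ZW27941 library (0.188) was just below the lowest DMSO library (0.196). SNORD12B, in the same host, was at 0.831 ± 0.156 CPM with DMSO and 0.704 ± 0.0645 CPM with ZW27941 (SD, n = 3). SNORD1B, in SNHG16, was at 0.204 ± 0.0677 and 0.159 ± 0.00828 CPM (SD, n = 3). SNORA9, in SNHG15, was at 0.679 ± 0.0739 and 0.672 ± 0.0697 CPM, and SNORD99, in SNHG12, at 0.493 ± 0.0961 and 0.512 ± 0.0658 CPM (SD, n = 3). In SNORD12B, SNORD1B, SNORA9 and SNORD99 the libraries of the groups overlapped. The standard error of the log2 fold change was 0.15 for SNORA9 and 0.028 for its host SNHG15. A change in SNORA9 of the size seen in the host was therefore not detectable from these counts. Of the 5 rows, SNORA9 alone lies within exons of its host, while the others share 0% of their bases with them. Whether the reads of these rows come from mature snoRNAs or from unspliced host RNA was not tested.

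The other snoRNA hosts were read from lists. Of 19 further non-coding hosts 13 were tested, and 5 fell and 5 rose (adjusted p under 0.05, edgeR quasi-likelihood test), or 38.5% each against 13.8% and 16.3% of all genes tested, with a median log2 fold change of 0.092. The fallen were EPB41L4A-AS1, SNHG14, SNHG17, SNHG11 and C6orf48, and the risen were SNHG3, SNHG4, SNHG19, SNHG21 and DANCR. EPB41L4A-AS1, the host of SNORA13, went from 37.4 to 30.9 CPM, a log2 fold change of −0.28 (standard error 0.033). SNHG14, the long transcript of the imprinted Prader-Willi region, went from 164 to 146 CPM, a log2 fold change of −0.17, and SNHG17 had one of −0.19. SNHG4 and SNHG19 rose by 0.18 and 0.16 on the log2 scale. The count of falls was 3 without DMSO replicate 3, ZW27941 replicate 1 or ZW27941 replicate 2, where 10.5% to 11.2% of all genes were called lower. The count of rises was 3 with upper quartile factors, with DESeq2 or without DMSO replicate 2, ZW27941 replicate 2 or ZW27941 replicate 3. It was 2 without DMSO replicate 3. In the fits with fewer rises 12.9% to 15.6% of all genes were called higher. A start with a pyrimidine run was found at 6 of 15 starts in this list (40.0%).

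Of 23 protein-coding snoRNA hosts other than ribosomal proteins, 10 fell (43.5%, against 13.8% of all genes) and 3 rose (13%, against 16.3% of all genes), with a median log2 fold change of −0.048. Without DMSO replicate 1, ZW27941 replicate 1 or ZW27941 replicate 2 the falls numbered 5, and without DMSO replicate 3 they numbered 6. In these fits 10.5% to 11.2% of all genes were called lower. ATP5B, a subunit of the mitochondrial ATP synthase, had a log2 fold change of −0.21 and TAF1D, a factor of RNA polymerase I initiation, of −0.16, while HSPA8, the constitutive HSP70 chaperone, rose by 0.15. The cytosolic ribosomal proteins, most of which start with a pyrimidine run as well, had a median log2 fold change of −0.084 over 80 genes tested. Of these 48 fell and 0 rose, against 13.8% and 16.3% of all genes. The 60.0% called lower is the same percentage as among the 10 hosts. Calls among the ribosomal proteins were counted only in the fit as reported, not under the alternatives. The medians of the lists were not tested against each other.

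**Figure D4:**
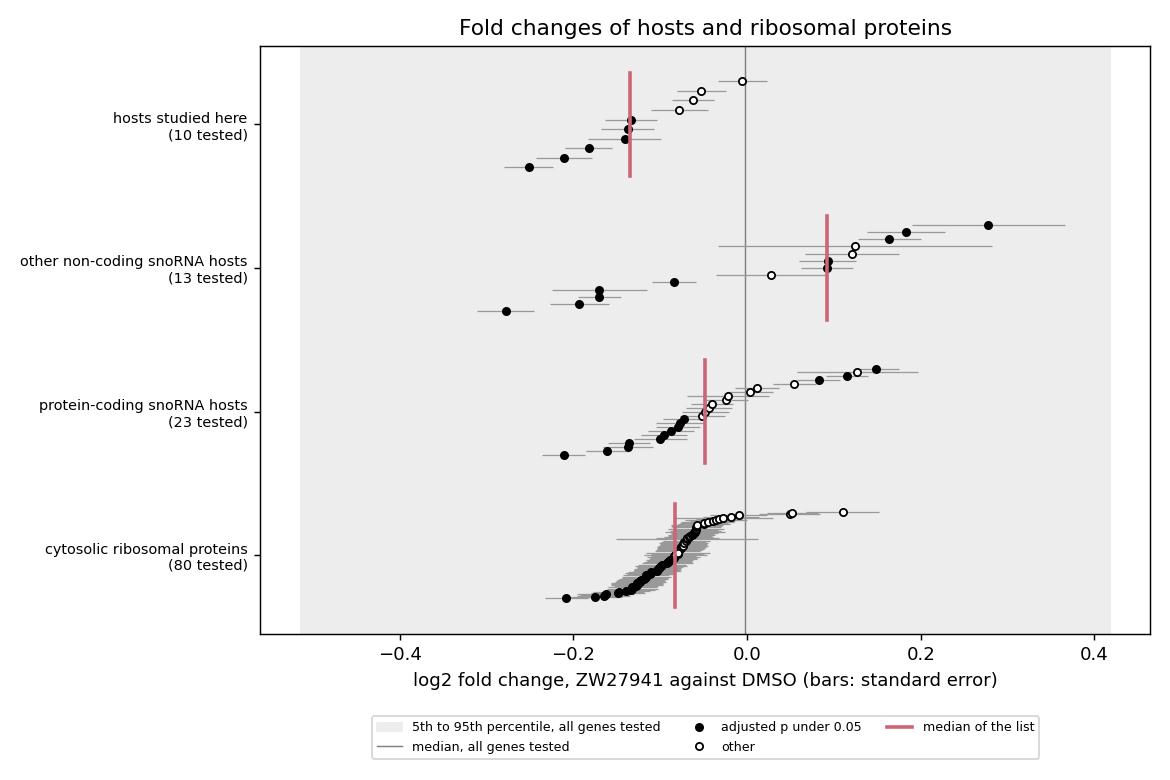
Log2 fold change (ZW27941 against DMSO, bars for the standard error) of each tested gene in the 10 hosts, the other non-coding hosts, the protein-coding hosts and the cytosolic ribosomal proteins, filled where the adjusted p was under 0.05, with the median of each list in red. The 10 hosts and 77 of the 80 ribosomal proteins lie to the left of 0, while the other non-coding hosts lie on both sides, from −0.28 to 0.28.

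Nonsense-mediated decay factors degrade the spliced RNA of these hosts. Of 18 tested, 2 fell and 3 rose, which is 11.1% and 16.7%, near the shares of all genes, and the median log2 fold change was −0.0063. SMG5 and SMG9, which act on the phosphorylation cycle of UPF1, had log2 fold changes of −0.11 and −0.12, and UPF3B, which links UPF2 to the exon junction complex, of 0.12. UPF1, the central helicase, had a log2 fold change of 0.015 that did not pass. With upper quartile factors 4 fell and 1 rose, where 17.9% of all genes were called lower and 13% higher. Without DMSO replicate 2 or ZW27941 replicate 2, 1 rose, where 13% of all genes were called higher.

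Among 18 proteins that build snoRNA particles, 6 fell (33.3%, against 13.8% of all genes) and 3 rose (16.7%, near the 16.3% of all genes), with a median log2 fold change of 0.011. NOP10, a core protein of the box H/ACA particle, went from 59.8 to 74.7 CPM, a log2 fold change of 0.32 (SE 0.028, edgeR quasi-likelihood adjusted p = 2.72e-08). SHQ1, an assembly factor of the same particle, rose by 0.18 on the log2 scale, and PIH1D1, a part of the R2TP assembly complex, had a log2 fold change of −0.16. Of the other core proteins of that particle, DKC1 (−0.095) and NHP2 (−0.12) fell and GAR1 (0.032) did not pass. Without ZW27941 replicate 2, 3 of the 18 were lower, where 10.7% of all genes were called lower.

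Of 15 regulators of TOP mRNA translation, 3 fell (20%) and 2 rose (13.3%), near the 13.8% and 16.3% of all genes, with a median log2 fold change of −0.040. EIF4EBP2, a repressor of cap-dependent initiation under mTORC1, had a log2 fold change of 0.11, RPS6KB2, a kinase under mTORC1, of −0.13, and PABPC1, the cytoplasmic poly(A)-binding protein and itself a TOP mRNA, of −0.10. LARP1, which binds the TOP tract, rose by 0.090 on the log2 scale. With upper quartile factors 6 fell, where 17.9% of all genes were called lower. Without DMSO replicate 3 or ZW27941 replicate 2, 1 rose, where 12.9% and 13% of all genes were called higher. The activity of mTORC1 was not measured here.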

How the data were processed

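RNA from MOLM13 cells was sequenced in 6 libraries. The authors deposited raw read counts per gene symbol, 1 set per library, and the submitters' processing notes name HISAT2, SAMtools 1.19.2, HTSeq 2.0.3 and hg38. The annotation, strand setting and counting mode are not given in the sources used here. HTSeq's tallies of reads without a gene (37.4% to 39.8% of reads tallied) were left out.

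The tests were run with edgeR 4.0.16 under R 4.3.3 (filterByExpr, TMM, quasi-likelihood test), with Benjamini-Hochberg adjustment over the 20399 genes tested and a threshold of 0.05. Standard errors are the log2 fold change over the root of the F statistic. The biological coefficient of variation was 3.11%. Because tool defaults leave a small prior count, fold changes of low genes are shrunk. Depth was 143454176 to 178744976 counts per library. DESeq2 1.42.0, other normalizations and filters, a replicate block and each library left out were alternatives. Steps were tested on simulated data, in which the planted changes were larger than those of the hosts. Recovery of changes as small as those of the hosts was not tested.

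The members and lists were chosen with earlier results of these data known. The genes named were the 10 hosts, snoRNA rows that passed the filter, METTL3 and, in each list, the 3 genes past the threshold with the lowest p. Other genes named in lists, the list of ribosomal proteins, and the GENCODE starts and motif counts were chosen after values were seen. Of the markers of other cell types and the genes overlapping hosts, 2 are not reported here.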

Additional observations from a re-analysis of the deposited data

How the results depend on the processing

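The 6 falls became 7 with RLE factors, DESeq2 or a filter of 10 counts in every library, 9 with upper quartile factors, and 5 to 8 with 1 library left out, and 0 hosts rose in any of these. Upper quartile factors also moved the split of all genes, from 13.8% lower and 16.3% higher to 17.9% lower and 13% higher, and the median of all genes from −0.0019 to −0.025. SNHG6 passed at −0.066 with RLE factors, −0.086 with upper quartile factors, −0.064 with DESeq2 and −0.064 with the stricter filter. It also passed without ZW27941 replicate 3 (−0.0785). GAS5 (−0.076) and ZFAS1 (−0.10) passed with upper quartile factors. SNHG16 was at 0.0046 with library size only and 0.00017 with no filter. Leaving out 1 library gave −0.090 to −0.028 for GAS5, −0.078 to −0.050 for SNHG6, −0.19 to −0.11 for SNHG12, −0.024 to 0.015 for SNHG16, −0.046 to 0.23 for SNORD99, −0.10 to 0.047 for SNORA9, −0.88 to −0.37 for SNORD12C, −0.37 to −0.10 for SNORD12B and −0.61 to −0.18 for SNORD1B. METTL3 changed sign with upper quartile factors (−0.010) and ran from −0.023 to 0.035 with 1 library left out.

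Other non-coding hosts called higher numbered 3 with upper quartile factors or DESeq2. With upper quartile factors 4 decay factors were lower and 1 higher, and 6 TOP regulators were lower. In the fits with 1 library left out, 10.2% to 13.8% of all genes were called lower and 12.9% to 15.6% higher. The other non-coding hosts then gave 3 to 5 lower and 2 to 5 higher, and the protein-coding hosts 5 to 11 lower. The decay factors gave 1 to 3 higher, the snoRNA particle proteins 3 to 7 lower and the TOP regulators 1 to 3 higher. The cause of these moves was not tested. Deviations of same-numbered libraries from their group means had r from −0.0099 to 0.043, and those of other pairs from −0.049 to 0.051. All genes tested weighed alike in this, low ones included, and each group has 3 libraries. It therefore does not show whether same-numbered libraries shared a culture or a batch. With the replicate block 6 hosts were lower, as without it, and 6010 genes were called in all, against 6149.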
